A study of Mus musculus with 16 samples.

Results

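The 10 imprinted genes that bear on growth, H19, Igf2, Dlk1, Meg3, Rian, Peg3, Plagl1, Grb10, Mest and Ndn, were followed by symbol through 16 RNA-seq libraries of sympathetic ganglia and neuroblastoma from Th-MYCN mice. They are 10 of the 24411 genes in the tables, and all 10 were among the 16665 genes kept by the filter on low counts. Neuroblastoma, a childhood tumor of the sympathetic nervous system, forms in Th-MYCN mice, whose transgene directs human MYCN to the neuroectoderm. The study asked whether tumors form when 1 of the 2 alleles of the co-repressor gene Runx1t1 is disrupted by an insertion. Celiac ganglia were taken at 2 weeks of age from 4 groups: mice with neither the transgene nor a disrupted Runx1t1 allele (transgene-free WT, n = 4), transgene-free mice heterozygous for the disrupted allele (transgene-free het, n = 3), mice homozygous for MYCN with wild-type Runx1t1 (MYCN WT, n = 3), and mice homozygous for MYCN and heterozygous for Runx1t1 (MYCN het, n = 2). The 5th group held 4 tumors from mice homozygous for MYCN with wild-type Runx1t1, taken, at no stated age, when an abdominal tumor had reached a set size or a thoracic tumor showed signs, so tumor and age cannot be told apart. The Runx1t1 line had been crossed to the MYCN strain from another background, mice of either sex were used, and the sources used here do not say that each library came from a separate animal, so p-values measure the spread between these libraries.

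An imprinted gene is read mainly from the copy inherited from one parent, the choice usually being set by a methylation mark laid down in the germ line. Imprinted genes lie in clusters in which a protein-coding gene read from the paternal copy often stands next to a noncoding RNA read from the maternal copy, and many are known for raising or restraining growth before birth and falling silent soon after it. Igf2 encodes a fetal growth factor and H19 the noncoding RNA beside it. Dlk1 encodes a Notch-like membrane protein of progenitor cells and Meg3 and Rian are noncoding RNAs of the same domain, Rian being the host of many small nucleolar RNAs. The counts here do not separate the parental copies, so they give the total level of each gene and not its imprinting.

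In the GRCm38 assembly with GENCODE annotation, H19 lies at chr7:142575529-142578143 and Igf2 at chr7:142650766-142666816, both on the minus strand and 72.6 kb apart. Dlk1 lies at chr12:109452823-109463336, Meg3 at chr12:109541001-109571726 and Rian at chr12:109603940-109661716, all on the plus strand, with 77.7 kb between Dlk1 and Meg3 and 32.2 kb between Meg3 and Rian. Peg3 (chr7:6703892-6730431, minus strand) and Ndn (chr7:62346569-62350262, plus strand) are on the same chromosome as Igf2 but far from it. Mest lies at chr6:30723547-30748465 on the plus strand, Plagl1 at chr10:13060504-13131694 on the plus strand, and Grb10 at chr11:11930508-12038683 on the minus strand. Mest overlaps Copg2 on the opposite strand, which was listed at up to 51.9 TPM, and Igf2 overlaps the antisense RNA Igf2os, at up to 0.52 TPM. Whether counting used the strand is not given in the sources used here, so reads of these overlapping pairs may not have been told apart.

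In all, 5 of the members hold microRNA genes, with 15 mature products that match RefSeq microRNAs (GRCm38.p6) and 15 distinct seeds, so no seed is shared within the set. They are shown because each is cut from the transcript or intron of a member whose level is described below, although libraries of total RNA do not measure the mature forms and the hairpins themselves were listed at 0 TPM. Those below, at least 1 from each of these members, are written 5′ to 3′ with the seed, bases 2 to 8, in capitals. H19 holds miR-675, Igf2 holds miR-483, Meg3 holds miR-770, Rian holds miR-370 and miR-341, and Mest holds miR-335.
mmu-miR-675-5p: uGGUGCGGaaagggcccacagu
mmu-miR-675-3p: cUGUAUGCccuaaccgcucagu
mmu-miR-483-5p: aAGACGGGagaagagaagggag
mmu-miR-483-3p: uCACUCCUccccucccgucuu
mmu-miR-770-5p: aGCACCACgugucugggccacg
mmu-miR-370-3p: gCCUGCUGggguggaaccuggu
mmu-miR-341-3p: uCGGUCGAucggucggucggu
mmu-miR-335-5p: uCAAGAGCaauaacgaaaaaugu

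The starts of Dlk1, Meg3 and Rian are shown because these neighbors, all in 1 domain, are set side by side in the results. Each sequence is the RefSeq (GRCm38.p6) window of 300 bases on the plus strand, from 250 bases before to 50 after an annotated start: chr12:109452573-109452872 for Dlk1, chr12:109540746-109541045 for Meg3 and chr12:109603695-109603994 for Rian.
Dlk1: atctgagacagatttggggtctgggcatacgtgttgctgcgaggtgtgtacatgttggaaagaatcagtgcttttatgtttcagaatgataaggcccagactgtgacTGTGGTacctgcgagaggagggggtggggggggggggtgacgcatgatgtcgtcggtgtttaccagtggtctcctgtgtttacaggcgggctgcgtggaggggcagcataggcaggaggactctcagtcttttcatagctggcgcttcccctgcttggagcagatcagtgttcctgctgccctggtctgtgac
Meg3: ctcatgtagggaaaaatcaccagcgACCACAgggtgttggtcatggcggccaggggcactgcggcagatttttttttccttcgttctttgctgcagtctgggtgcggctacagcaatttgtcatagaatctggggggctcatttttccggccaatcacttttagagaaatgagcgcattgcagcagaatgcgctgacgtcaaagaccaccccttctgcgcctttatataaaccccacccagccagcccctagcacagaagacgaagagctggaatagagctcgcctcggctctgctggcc
Rian: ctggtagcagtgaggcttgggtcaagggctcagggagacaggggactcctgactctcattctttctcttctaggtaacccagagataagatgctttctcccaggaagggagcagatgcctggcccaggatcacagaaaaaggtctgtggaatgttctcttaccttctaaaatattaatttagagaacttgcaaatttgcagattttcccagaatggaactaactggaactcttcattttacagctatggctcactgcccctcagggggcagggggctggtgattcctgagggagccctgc
Capitals mark the RUNX motif, TGTGGT on either strand, which stood 137 bases before the start of Dlk1 as TGTGGT and 219 bases before that of Meg3 as ACCACA, and was not in the Rian window. The motif was in 2 of the 16 windows that the table gives for 9 members, against 16.8% of all 32851 windows of that length. The E-box CACGTG, the same on both strands, was in 1 of the 16, the Plagl1 window chr10:13090582-13090881, 176 bases before the start, against 7.15% of all windows. These are matches of letters in a window and not binding sites.

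The libraries held between 10692299 and 38618757 counts (median 27205408), with 6 of the 12 ganglia under 20000000 and all 4 tumors over it. Replicate 2 of the transgene-free WT ganglia stood apart by 8 lymphocyte markers, whose summed level was 1010 TPM against at most 22.4 in the other 15 libraries, and tumor 3 by 7 liver markers, at 8331 TPM against at most 445. All 13 sympathetic neuron markers had a median over 1 TPM in every group, and their sum was 8257 to 23425 TPM in ganglia and 2697 to 4682 TPM in tumors. In bulk tissue, fewer cells of a type and less RNA per cell cannot be told apart. TPM (RSEM's transcript level, scaled for gene length and library size) is used for levels, and fold changes with their standard errors (SE) come from edgeR's quasi-likelihood test on the counts, adjusted by Benjamini-Hochberg over all 16665 genes and called at 0.05.

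The targeted gene Runx1t1 was at 2.78, 3.30, 4.41 and 4.19 TPM in transgene-free WT ganglia and at 4.38, 4.36 and 6.28 in transgene-free het ganglia. MYCN WT ganglia held 70.3, 7.90 and 37.4 TPM, MYCN het ganglia 8.83 and 16.9, and tumors 29.5 to 55.8. The het libraries were thus not below the wild-type ones without MYCN, where the log2 difference was 0.41 (SE 0.52, adjusted p = 0.993 by edgeR), and with MYCN it was -1.74 (SE 0.66, adjusted p = 0.350). Counts per gene do not separate reads of the disrupted allele, so this does not check the Runx1t1 labels.

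Of the 10 members, 3 were higher in tumors than in the transgene-free ganglia (Dlk1, Rian and Ndn) and 3 were lower (Igf2, H19 and Peg3), against 61.4% of all genes called in this comparison, so that the members' share is that of the background. The median log2 fold change of the members was 0.46, against -0.06 over all genes. Against MYCN WT ganglia of the same genotype, 1 member was higher (Dlk1) and 2 were lower (Igf2 and H19), where 34.5% of all genes were called. The log2 fold change against transgene-free ganglia ran from 5.72 for Dlk1 to -5.85 for Igf2. Both comparisons use the same 4 tumors.

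**Figure D1:**
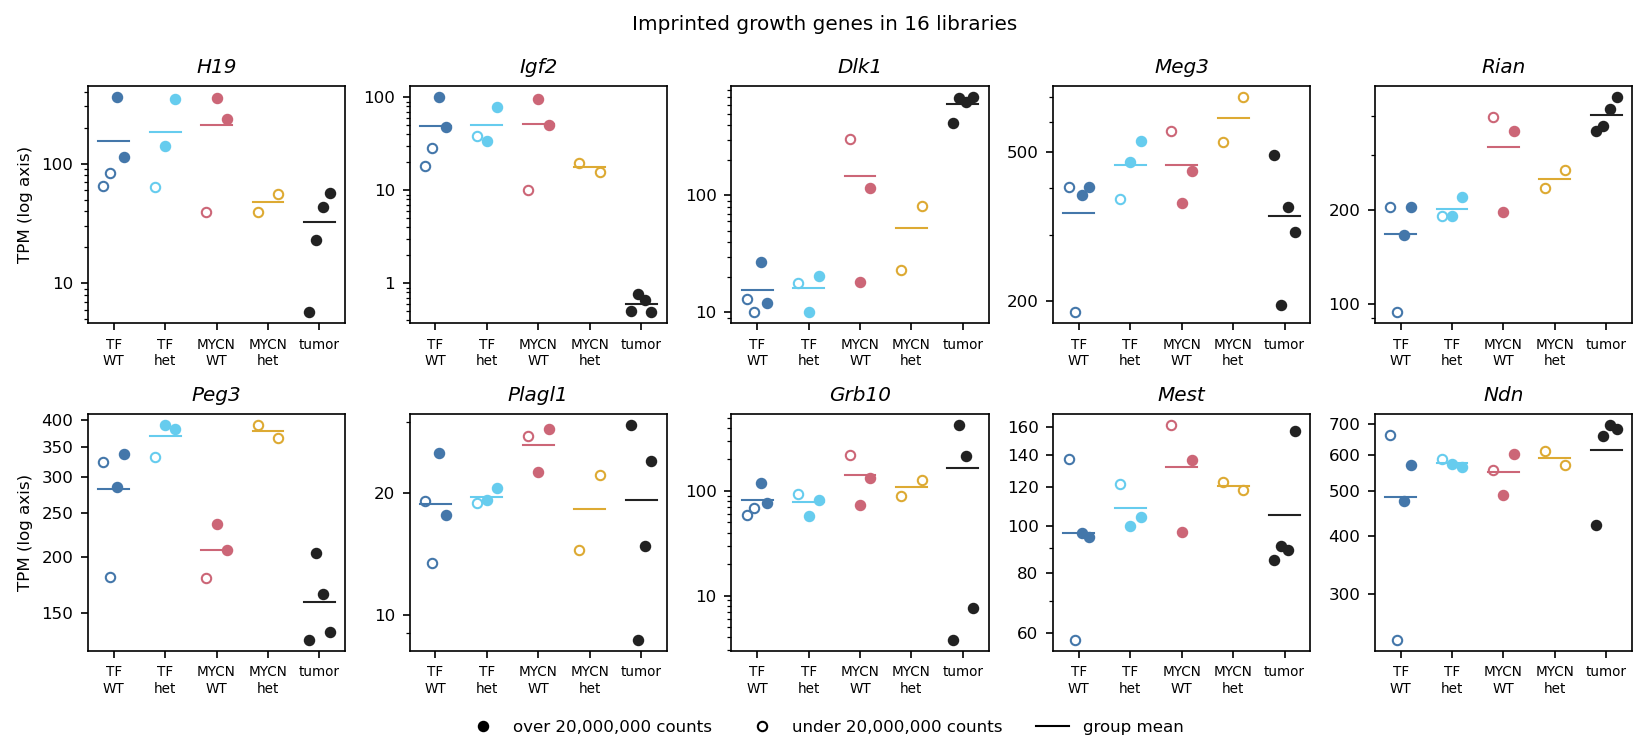
Level of each of the 10 members in every library, in TPM on a log axis, by group (TF, transgene-free), with a point for each library, open under 20000000 counts, and a line at the group mean. Dlk1 in tumors (414 to 699 TPM) lies above every ganglion and Igf2 in tumors (0.49 to 0.77 TPM) below every ganglion, and Grb10 in tumors falls into a low and a high pair.

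Igf2 was lower in tumors than in every ganglion library. It was at 18.1, 28.6, 101 and 47.4 TPM in transgene-free WT ganglia, 38.0, 34.0 and 78.7 in transgene-free het ganglia, 10.1, 95.9 and 50.3 in MYCN WT ganglia and 19.7 and 15.9 in MYCN het ganglia. The 4 tumors held 0.50, 0.77, 0.66 and 0.49 TPM, from 28, 60, 35 and 38 counts. The groups did not overlap, the lowest ganglion being at 10.1 TPM. Igf2 fell by 5.85 on the log2 scale against transgene-free ganglia (SE 0.68, adjusted p = 8.26e-06) and fell by 5.93 against MYCN WT ganglia (SE 0.72, adjusted p = 5.33e-05, edgeR). Both calls held under every alternative and with any library left out, the highest adjusted p being 6.94e-05 and 0.00372.

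H19 was lower in tumors too, by less and with less margin. Its levels were 64.5, 83.2, 362 and 114 TPM in transgene-free WT ganglia and 63.6, 140 and 345 in transgene-free het ganglia. MYCN WT ganglia held 39.1, 356 and 235 TPM and MYCN het ganglia 39.4 and 55.7. The tumors, at 5.73, 23.0, 43.1 and 57.2 TPM, were below all 7 transgene-free ganglia, of which the lowest was at 63.6, but overlapped both MYCN groups. H19 fell by 1.95 on the log2 scale against transgene-free ganglia (SE 0.73, adjusted p = 0.0323) and fell by 2.27 against MYCN WT ganglia (SE 0.83, adjusted p = 0.0466, edgeR). The first call was lost without replicate 3 of the transgene-free WT ganglia (-1.54, adjusted p = 0.0610), replicate 4 of the transgene-free het ganglia (-1.54, adjusted p = 0.0812), tumor 1 (-1.60, adjusted p = 0.0720) or tumor 2 (-1.83, adjusted p = 0.0784). The call against MYCN WT ganglia was lost without any of 9 of the 16 libraries, namely replicate 4 of the transgene-free WT, 3 of the transgene-free het, 3 and 4 of the MYCN WT, 1 and 2 of the MYCN het ganglia, and tumors 1, 2 and 3, with adjusted p up to 0.205 (-1.66, without replicate 3 of the MYCN WT ganglia). It was lost as well with only the groups compared (-2.29, adjusted p = 0.0811) and without both libraries that stood apart (-2.42, adjusted p = 0.0612).

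In ganglia, H19 split with the depth of the library. It was at 39.1 to 83.2 TPM in the 6 ganglia under 20000000 counts and at 114 to 362 in the 6 over it. The share of all genes that separate over this split was not counted. Over the same split, the sum of 6 skeletal muscle markers was 11 to 40.8 TPM under and 26.9 to 239 over, and that of 9 fibroblast markers 992 to 3747 under and 1731 to 7981 over. The medians under and over were 18.5 and 127 TPM for skeletal muscle, 2947 and 3776 for fibroblasts, 1583 and 6374 for 6 erythroid markers, 311 and 1234 for 5 fat markers and 20 and 115 for the liver markers. With libraries over 20000000 counts alone, H19 fell by 2.43 in tumors against transgene-free ganglia (adjusted p = 0.0133) and Igf2 fell by 6.22 (adjusted p = 2.09e-05, edgeR).

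The fibroblast markers were lower in tumors as a list. Their sum was 1731 to 7981 TPM in transgene-free ganglia, 992 to 3639 in MYCN ganglia and 234 to 574 in tumors, none of the 9 being at 0 throughout. Of the 9, 7 fell and 1 (Fbln1, an extracellular matrix protein, log2 3.23) rose in tumors against transgene-free ganglia, where 61.4% of all genes were called, with a median of -3.38. Per 1000 TPM of this sum, Igf2 was at 5.70 to 26.4 TPM in ganglia and 0.85 to 2.82 in tumors, again without overlap, whereas H19 was at 12.7 to 97.9 in ganglia and 19.8 to 184 in tumors, which overlap. The skeletal muscle sum was 13.7 to 239 TPM in transgene-free ganglia, 11 to 182 in MYCN ganglia and 5.3 to 19.2 in tumors. After subtracting each group's mean, the correlation with the fibroblast sum over the 16 libraries was 0.85 for Igf2 and 0.70 for H19, and with the skeletal muscle sum 0.81 and 0.91, on log2 values that share each library's depth and dissection. The part of these cells and of depth in the 2 results was not tested.

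**Figure D2:**
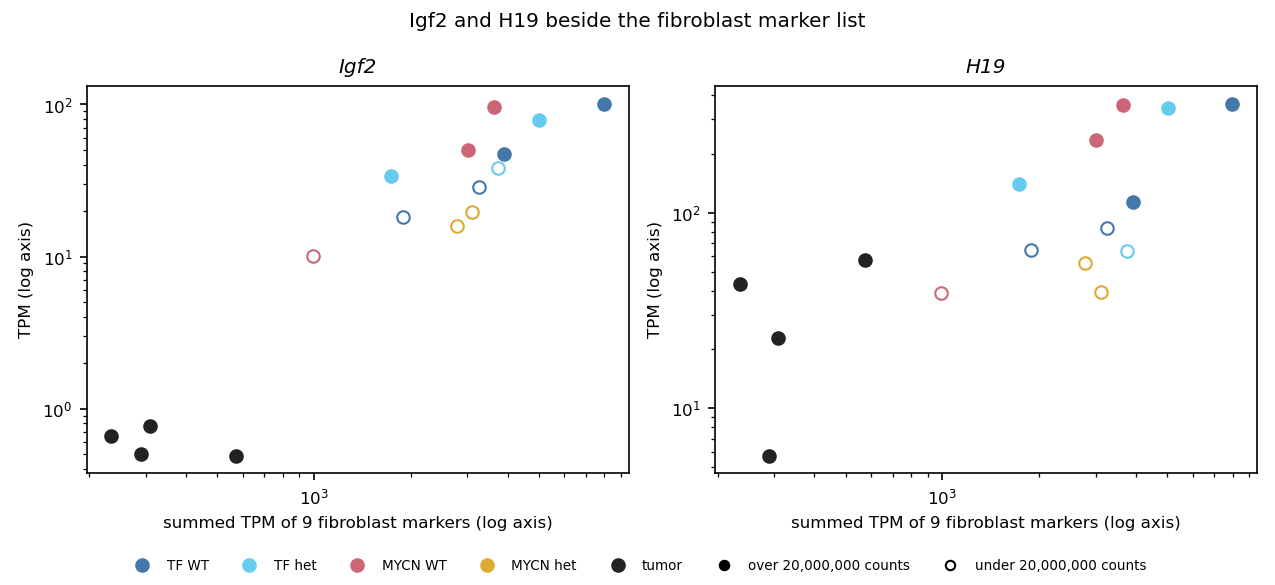
Igf2 and H19 level against the summed level of the 9 fibroblast markers, both in TPM on log axes, with a point for each library colored by group (TF, transgene-free) and open under 20000000 counts. The tumors sit at 234 to 574 TPM of fibroblast markers, where Igf2 is below every ganglion and H19 overlaps the MYCN ganglia.

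In the Dlk1 domain, Dlk1 and Rian rose in tumors and Meg3 did not pass the test. Dlk1 was at 13.1, 10.02, 26.7 and 12.0 TPM in transgene-free WT ganglia and 18.0, 10.2 and 20.5 in transgene-free het ganglia. MYCN WT ganglia held 303, 18.1 and 115 TPM, MYCN het ganglia 22.9 and 81.7, and tumors 414, 681, 634 and 699. Every tumor was above every ganglion, and among MYCN WT ganglia replicate 3 lay within the transgene-free range while replicates 1 and 4 lay above it. Dlk1 rose by 5.72 on the log2 scale in tumors against transgene-free ganglia (SE 0.63, adjusted p = 5.3e-06) and by 2.35 against MYCN WT ganglia (SE 0.75, adjusted p = 0.0258, edgeR). The latter call was lost without replicate 4 of the MYCN WT ganglia (adjusted p = 0.0971), with only the groups compared (2.37, adjusted p = 0.0707) and with the replicate block (2.39, adjusted p = 0.0592). This difference varied with single MYCN WT libraries, being 3.63 without replicate 1 and 1.82 without replicate 3, and passed the test without either.

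Rian followed Dlk1 with a smaller change. It was at 205, 93.7, 166 and 204 TPM in transgene-free WT ganglia, 191, 191 and 219 in transgene-free het ganglia, 398, 197 and 358 in MYCN WT ganglia and 235 and 269 in MYCN het ganglia. Tumors held 358, 371, 422 and 461 TPM, above all transgene-free and MYCN het ganglia and overlapping the MYCN WT ganglia. Rian rose by 1.58 on the log2 scale against transgene-free ganglia (SE 0.21, adjusted p = 2.54e-05), and the difference from MYCN WT ganglia was 0.71 (SE 0.27, adjusted p = 0.0563, edgeR). That difference lay close to the threshold: it passed by DESeq2 (0.72, adjusted p = 0.024), with at least 10 counts in every library (0.69, adjusted p = 0.0469), with the replicate block (0.81, adjusted p = 0.0443), with only libraries over 20000000 counts (0.96, adjusted p = 0.0135), without both libraries that stood apart (0.70, adjusted p = 0.0409), without replicate 2 of the transgene-free WT ganglia (0.72, adjusted p = 0.0224) and without replicate 1 of the MYCN WT ganglia (0.99, adjusted p = 0.0141), and was 0.435 without replicate 3 of the MYCN WT ganglia (adjusted p = 0.232).

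Meg3, the most abundant noncoding member in ganglia, did not pass the test in any comparison. It was at 403, 187, 384 and 403 TPM in transgene-free WT ganglia, 374, 471 and 536 in transgene-free het ganglia, 569, 366 and 446 in MYCN WT ganglia, and 532 and 702 in MYCN het ganglia. Tumors held 491, 195, 356 and 307 TPM. They overlapped every group of ganglia but the MYCN het, which lay above them, and the log2 difference from transgene-free ganglia was -0.17 (SE 0.30, adjusted p = 0.646, edgeR). With 1 library left out this difference ran from -0.559 to 0.053, the highest being without tumor 2.

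The ratios within the domain give the same values per library. The log2 ratio of Dlk1 to Meg3, from TPM with 1 TPM added, was between -5.40 and -3.80 in the 7 transgene-free ganglia (mean -4.58 ± 0.55, SD). It was -0.91, -4.27 and -1.95 in MYCN WT ganglia and -4.48 and -3.09 in MYCN het ganglia. In tumors it was -0.25, 1.80, 0.83 and 1.18 (mean 0.89 ± 0.86, SD, n = 4), so that Dlk1 was above Meg3 in 3 of 4 tumors and in no ganglion. The ratio of Rian to Meg3 was -1.10 ± 0.15 (SD, n = 7) in transgene-free ganglia, -0.515, -0.89 and -0.32 in MYCN WT ganglia, -1.18 and -1.38 in MYCN het ganglia and -0.45, 0.93, 0.25 and 0.59 in tumors, so that tumor 1 lay within the MYCN WT range. That of Igf2 to H19 was -2.20 to -0.73 in ganglia and -2.17, -3.76, -4.73 and -5.29 in tumors. The 1 TPM added exceeds Igf2 in every tumor (0.49 to 0.77 TPM) and draws these tumor ratios toward the ganglia. The place of tumor 1 within the ganglion range rests on it, its levels being 0.50 TPM for Igf2 and 5.73 TPM for H19. In each ratio tumor 1 was the nearest to the ganglia. These ratios were made from genes whose changes were already described and carry no test.

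**Figure D3:**
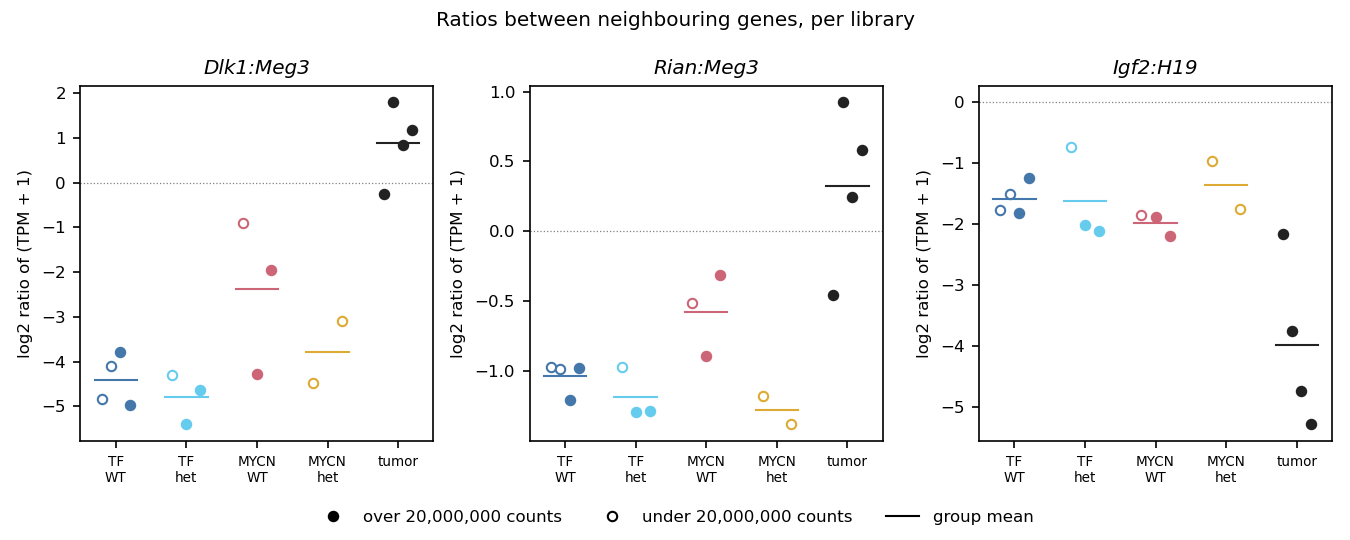
Log2 ratio of TPM for Dlk1 to Meg3, Rian to Meg3 and Igf2 to H19 in every library, by group (TF, transgene-free), with a point for each library, open under 20000000 counts, and a line at the group mean. Tumors lie above all ganglia for Dlk1 to Meg3 (-0.25 to 1.80 against at most -0.91), and at the low end for Igf2 to H19. The 1 TPM added to each level exceeds Igf2 in every tumor.

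Peg3 and Plagl1 encode zinc finger transcription factors, and Plagl1 is known as a regulator of other imprinted genes. Peg3 was at 324, 180, 285 and 337 TPM in transgene-free WT ganglia, 332, 391 and 382 in transgene-free het ganglia, 179, 236 and 207 in MYCN WT ganglia, 391 and 365 in MYCN het ganglia, and 131, 204, 165 and 136 in tumors. Tumors lay below both het groups and overlapped the wild-type groups. Peg3 fell by 0.58 on the log2 scale in tumors against transgene-free ganglia (SE 0.17, adjusted p = 0.00772), and its difference from MYCN WT ganglia was 0.00 (SE 0.20, adjusted p = 0.989, edgeR). Plagl1 ran from 13.4 to 25.1 TPM in transgene-free ganglia, from 14.4 to 28.8 in MYCN ganglia and from 8.65 to 29.5 in tumors, all overlapping, with a log2 difference of 0.44 (SE 0.27, adjusted p = 0.174) that passed the test without tumor 2 (0.68, adjusted p = 0.0208) and was 0.15 without tumor 1 (adjusted p = 0.638).

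Grb10, an adaptor protein that binds insulin and IGF receptors and restrains their signal, divided the tumors. It was at 57.3 to 119 TPM in transgene-free ganglia, at 220, 73.5 and 133 in MYCN WT ganglia and at 90.2 and 128 in MYCN het ganglia. Tumors 2 and 3 held 431 and 215 TPM, and tumors 1 and 4 held 3.77 and 7.67, below every ganglion. The tumor mean of 164 ± 203 TPM (SD, n = 4) thus describes no tumor, and the log2 difference from transgene-free ganglia was 1.49 (SE 0.84, adjusted p = 0.140, edgeR). It was 1.90 without tumor 1 (adjusted p = 0.0291), 1.89 without tumor 4 (adjusted p = 0.0457) and 0.31 without tumor 2 (adjusted p = 0.774), and the mean of log2(TPM + 1) differed by -0.82, opposite in sign to the fit. The genes on either side did not divide the tumors in this way. Ddc, an enzyme of catecholamine synthesis, was at 418, 204, 199 and 170 TPM in tumors 1 to 4. Cobl was at 4.57, 3.54, 4.56 and 6.58 TPM, tumors 1 and 3 being nearly level. Both genes were named after their values were seen. Plagl1 divided the tumors in reverse, at 8.65 and 14.8 TPM in tumors 2 and 3 and 29.5 and 24.0 in tumors 1 and 4. The summed level of 8 satellite glia and Schwann cell markers did divide the same tumors, at 2380 and 3967 TPM in tumors 2 and 3 and 938 and 907 in tumors 1 and 4, against 3691 to 7531 in ganglia. Sums of macrophage (616 and 299.5 against 199.7 and 248.7 TPM), chromaffin cell (1892 and 1787.5 against 1592.5 and 999) and lymphocyte markers (22.4 and 8 against 4 and 6.6) were also higher in tumors 2 and 3. The part of these markers' cells in the Grb10 levels was not tested.

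Mest, a hydrolase-like protein of the endoplasmic reticulum, was at 58.0 to 138 TPM in transgene-free ganglia, 97.3 to 162 in MYCN ganglia and 84.8, 90.7, 89.3 and 157 in tumors. Its log2 difference between tumors and transgene-free ganglia was 0.48 (SE 0.23, adjusted p = 0.0801, edgeR), and passed the test without replicate 1 of the transgene-free WT ganglia (0.60, adjusted p = 0.0272) and with a term for depth (0.615, adjusted p = 0.0407), and was 0.22 without tumor 4 (adjusted p = 0.405). Ndn, encoding necdin, a protein of postmitotic neurons, was the most abundant member in most libraries, at 238 to 662 TPM in transgene-free ganglia, 490 to 610 in MYCN ganglia and 422, 657, 697 and 681 in tumors. Ndn rose by 0.67 on the log2 scale against transgene-free ganglia (SE 0.21, adjusted p = 0.0123) although the TPM ranges overlapped, and its difference from MYCN WT ganglia was 0.55 (SE 0.26, adjusted p = 0.114, edgeR). The latter passed without replicate 2 of the transgene-free WT ganglia (0.56, adjusted p = 0.0242) and without tumor 1 (0.69, adjusted p = 0.0475, edgeR). The median of all tested genes in log2(TPM + 1) was -0.35 in tumors against transgene-free ganglia and -0.06 in the fit, so small differences depend on the scale: on the TPM scale that of Ndn was 0.24, of Mest 0.02 and of Plagl1 -0.11. The fall of Peg3 was larger on the TPM scale, at -1.01 against -0.58 in the fit. Against MYCN WT ganglia Peg3 was -0.395 on the TPM scale and 0.00 in the fit. The lowest Dlk1, Meg3, Rian, Plagl1, Mest and Ndn of all ganglia were in the transgene-free WT library that stood apart by lymphocyte markers.

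**Figure D4:**
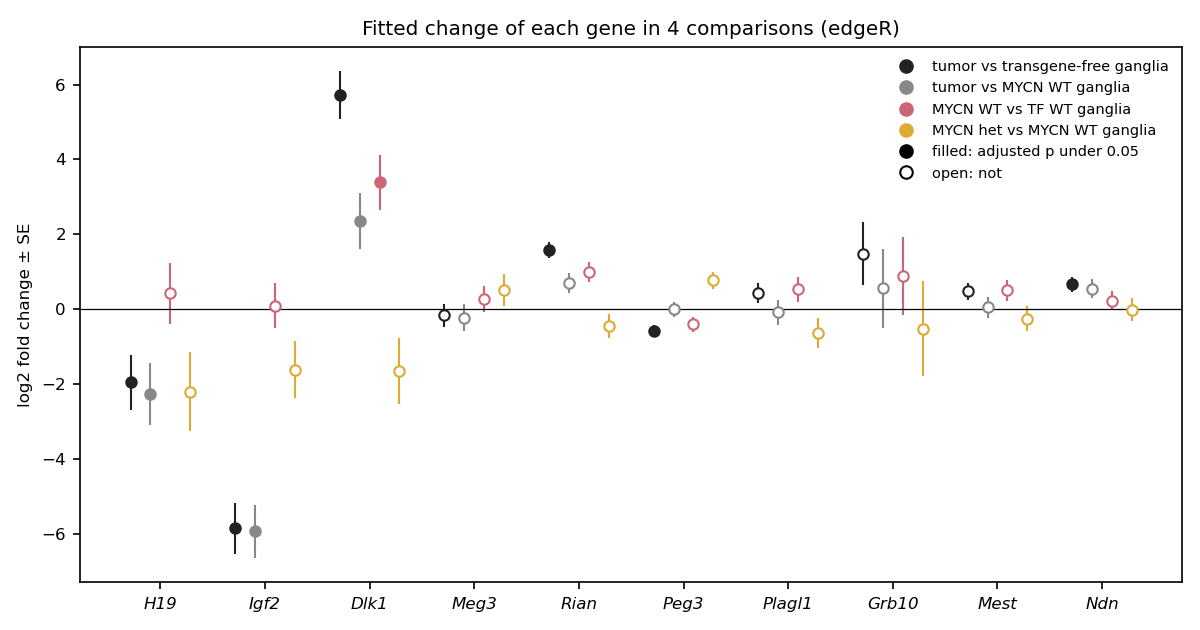
Fitted log2 fold change of each member in 4 comparisons, tumors against transgene-free (TF) and against MYCN WT ganglia, MYCN WT against TF WT and MYCN het against MYCN WT ganglia, with bars of 1 SE, filled where the edgeR call passed 0.05. Dlk1 (5.72) and Igf2 (-5.85) are the outermost values in tumors against transgene-free ganglia, and no point for MYCN het against MYCN WT is filled.

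Between ganglia, Dlk1 was the member that passed the test for the transgene. In MYCN WT against transgene-free WT ganglia 1 of the 10 members rose, against 0.936% of all genes called. Dlk1 rose by 3.39 on the log2 scale (SE 0.72, adjusted p = 0.0473), and Rian differed by 1.00 (SE 0.26, adjusted p = 0.0770, edgeR). The call for Dlk1 held without replicate 2 of the transgene-free WT, replicate 3 of the MYCN WT or replicate 1 of the MYCN het ganglia and was lost without any of the other 13 libraries, falling to 2.11 without replicate 1 of the MYCN WT ganglia. With 1 library left out the difference stayed positive, running from 2.11 to 3.92. The call was lost too with only the groups compared (3.38, adjusted p = 0.378), with only libraries over 20000000 counts (1.88, adjusted p = 0.574), without both libraries that stood apart (3.25, adjusted p = 0.0572) and with the replicate block (3.28, adjusted p = 0.0923). Rian passed by DESeq2 (0.98, adjusted p = 0.00976) and without replicate 3 of the MYCN WT ganglia. The MYCN WT library with the highest Dlk1 and Rian, replicate 1, also had the lowest fibroblast sum (992 TPM) and glia sum (3691 TPM) of the 12 ganglia and a neuron sum of 8705 TPM, against 13676 and 11685 in the other 2 libraries of its group. The part of these cell types in the Dlk1 difference was not tested. Over both Runx1t1 genotypes together none of the members passed, against 0.042% of all genes, with 2 members (Dlk1 and Rian) at an unadjusted p under 0.05, as were 1574 of all 16665 genes, and 1 called by DESeq2, which called 358 of 16159 genes. There Dlk1 differed by 2.54 (SE 0.55, adjusted p = 0.10) and Rian by 0.64 (SE 0.21, adjusted p = 0.280), and both passed without replicate 3 of the MYCN WT ganglia (2.81, adjusted p = 0.00277, and 0.78, adjusted p = 0.0237). By DESeq2 Dlk1 differed by 2.55 (adjusted p = 0.000215). In MYCN WT ganglia, replicate 3 had the lowest Dlk1, Rian and Runx1t1 of the 3 and the highest H19 and Igf2.

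With MYCN, Runx1t1 het ganglia were compared with wild-type ones at 2 libraries against 3. None of the members passed, against 0.012% of all genes called, with 1 (Peg3) at an unadjusted p under 0.05, as were 2094 of all 16665 genes, and 0 called by DESeq2, which called 271 of 16159 genes. Peg3, at 391 and 365 TPM against 179, 236 and 207, differed by 0.77 on the log2 scale (SE 0.23, adjusted p = 0.295, edgeR). Plagl1, at 14.4 and 22.1 TPM against 22.5 to 28.8, differed by -0.63 (SE 0.41, adjusted p = 0.534, edgeR). How many of all genes separate at 2 libraries against 3 was not counted. H19 differed by -2.20 (SE 1.07, adjusted p = 0.410), Igf2 by -1.61 (SE 0.77, adjusted p = 0.404) and Dlk1 by -1.65 (SE 0.87, adjusted p = 0.447). With 1 library left out these ran from -2.68 to -1.59 for H19, from -2.09 to -0.84 for Igf2 (the latter without replicate 3 of the MYCN WT ganglia) and from -2.88 (without replicate 2 of the MYCN het ganglia) to -0.37 (without replicate 1 of the MYCN WT ganglia) for Dlk1. Both MYCN het libraries were under 20000000 counts, as was 1 of the 3 MYCN WT libraries, and with a term for depth the difference was -0.48 for H19, -0.28 for Igf2, -1.83 for Dlk1 and 0.89 for Peg3.

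Without MYCN, Runx1t1 het against wild-type ganglia gave 0 called members at a background of 0%, with 0 at an unadjusted p under 0.05 and 0 by DESeq2, and over all genes 0 by edgeR, 5 by DESeq2 and 687 at an unadjusted p under 0.05. The largest member difference was 0.42 for Meg3 (SE 0.36, adjusted p = 0.993). The interaction, which asks whether the transgene's effect differed between Runx1t1 genotypes, gave 0 members by edgeR, by DESeq2 and at an unadjusted p under 0.05, and 0% of all genes called, 937 being under an unadjusted p of 0.05 and 31 called by DESeq2. It was -2.40 for H19 (SE 1.31), -1.63 for Igf2 (SE 0.96), -1.68 for Dlk1 (SE 1.10) and -0.71 for Rian (SE 0.42), each at adjusted p = 0.845.

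The other imprinted genes were read from a list of 43, of which 40 were tested. In tumors against transgene-free ganglia 15 rose and 10 fell, where 61.4% of all genes were called (median log2 0.13). Ascl2, a transcription factor of the placenta, was higher (adjusted p = 0.000118), at 0 to 0.14 TPM in transgene-free ganglia and 0.78 to 14.5 in tumors, and no fold is given against levels so near 0. Peg10, a gene derived from a retrotransposon, rose by 7.86 (SE 0.92, adjusted p = 8.26e-06). Peg10 was at 6.57 to 16.6 TPM in transgene-free ganglia and at 68.5, 2732, 2807 and 3137 in tumors, tumor 1 being far below the other 3. Magel2, a neighbor of Ndn, rose by 6.47, and the amino acid transporter Slc38a4 by 5.61. The fold of Magel2 rests on levels near 0, at 0.18 to 1.21 TPM in transgene-free ganglia against 8.32 to 57.1 in tumors. Asb4 was higher as well (adjusted p = 0.00191), at 0 to 0.80 TPM in transgene-free ganglia and 3.69 to 13.3 in 3 of the 4 tumors, but was listed at 0 in tumor 1, and no fold is given. Zim1, a zinc finger gene beside Peg3, fell by 4.69 (adjusted p = 1.87e-05, edgeR), from 2.54 to 8.40 TPM in transgene-free ganglia to 0.07 to 0.29 in tumors, and Nap1l5 (log2 -1.97), Impact (-1.85), Snurf (-1.80) and Zrsr1 (-1.75) were lower too.

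In the Dlk1 domain itself, Rtl1 rose by 3.48 (SE 0.38, adjusted p = 4.96e-06) and the noncoding RNA Mirg by 2.38 (SE 0.33, adjusted p = 3.01e-05, edgeR), while Dio3 was not tested. Rtl1 was at 4.94 to 22.5 TPM in transgene-free ganglia and 60.7 to 138 in tumors, and it lies opposite an antisense RNA, so its value rests on how strand was counted. Both were named after their values were seen, as genes of this domain. Against MYCN WT ganglia 9 of the 40 rose and 11 fell, where 34.5% of all genes were called, with Ascl2 (at most 0.28 TPM in MYCN WT ganglia), Asb4 (at most 0.57 TPM there), Peg10 (4.93), Magel2 (2.46) and Peg12 (2.28) outermost above and Zim1 (-4.55), Snurf (-1.18), Zrsr1 (-1.09), Blcap (-1.08) and Nap1l5 (-1.06) below. In MYCN WT against transgene-free WT ganglia 1 of the 40 rose, Slc38a4 (4.37, SE 0.85, adjusted p = 0.0379, edgeR), where 0.936% of all genes were called. Slc38a4 was at 0.88 to 3.52 TPM in all transgene-free ganglia and 84.1, 4.07 and 41.7 in MYCN WT ganglia. Its call was lost with the replicate block, only the groups compared or only libraries over 20000000 counts, where 0 of all genes were called. The same held without replicate 1, 3 or 4 of the transgene-free WT or replicate 1 or 4 of the MYCN WT ganglia. In each of the other 4 comparisons 0 of the 40 passed.

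The 16 genes of the IGF axis include receptors, docking proteins and binding proteins through which IGF2 acts or is held. Of the 16, 4 rose and 4 fell in tumors against transgene-free ganglia, a share below the 61.4% of all genes called. The binding protein Igfbp2 rose by 3.86 (SE 0.71, adjusted p = 0.000308, edgeR), the docking protein Irs1 by 0.83 and the insulin receptor Insr by 0.52. In TPM, Irs1 and Insr overlapped between transgene-free ganglia and tumors. Irs1 was at 7.65 to 17.1 and 7.97 to 19.7 TPM, and Insr at 16.8 to 25.8 and 19.6 to 28.1. The 4th, Igfals, had a mean under 1 CPM. It was at 6.88 TPM in tumor 3, which stood apart by liver markers, and at 0.20 to 0.64 in the other tumors. Igfbp6, a binding protein that prefers IGF2, fell by 2.80 (SE 0.69, adjusted p = 0.00289), and the docking protein Irs2 (log2 -1.95), Igfbp7 (-1.74) and Igfbp4 (-1.72) were lower too. The receptor Igf1r was at 24.3 to 35.7 TPM in transgene-free ganglia and 32.1, 3.98, 5.97 and 8.62 in tumors (log2 -0.75, SE 0.45, adjusted p = 0.162), and Igf2r, an imprinted receptor that clears IGF2, differed by 0.11 (SE 0.10, adjusted p = 0.369), both named after their values were seen. Against MYCN WT ganglia Igfbp2 rose by 2.64 and Igfbp6 (-2.10) and Irs2 (-1.35) fell, and in the 5 comparisons between ganglia 0 of the 16 passed.

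Some members moved together from library to library. With each group's mean subtracted, the correlation of log2 CPM over the 16 libraries had a median of 0.16 over the 45 pairs of members, with 9 pairs over 0.5 and 1 under -0.5. H19 and Igf2 were at 0.75, Dlk1 and Rian at 0.73 and Meg3 and Rian at 0.51, but Dlk1 and Meg3 at 0.23. Across chromosomes, Rian and Mest were at 0.81, Meg3 and Plagl1 at 0.79, Rian and Ndn at 0.76, Mest and Ndn at 0.725, and Plagl1 and Grb10 at -0.71. Peg3 and Ndn, far apart on chromosome 7, were at 0.72. The same measure against Runx1t1 was 0.87 for Dlk1, 0.675 for Rian, 0.54 for Plagl1, 0.47 for Meg3, 0.45 for Mest, 0.06 for Ndn, -0.05 for Grb10, -0.34 for Peg3, -0.36 for H19 and -0.51 for Igf2. These are descriptions over libraries that share depth and dissection. The transgene-free WT library that stood apart by lymphocyte markers had the lowest Meg3, Rian, Plagl1, Mest and Ndn of all ganglia in TPM. Correlations without that library were not computed, nor was the share of all gene pairs over 0.5.

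**Figure D5:**
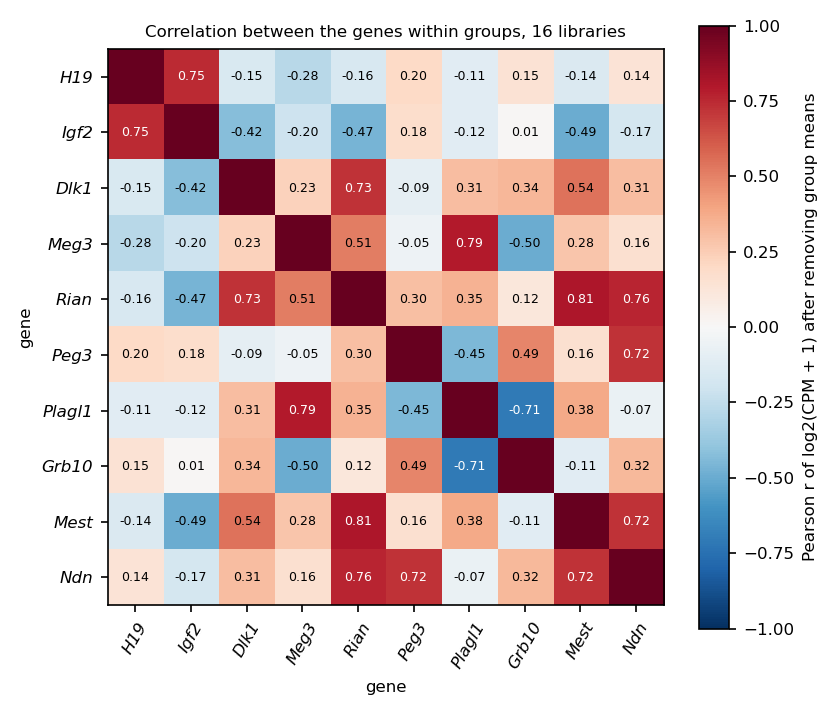
Pearson correlation of log2 CPM between each pair of members over the 16 libraries after subtraction of each group's mean, on a color scale from -1 to 1. H19 with Igf2 (0.75), Dlk1 with Rian (0.73) and Rian with Mest (0.81) are among the high pairs, and Plagl1 with Grb10 (-0.71) is the lowest.

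Outside the set, the genes most like each member over the 16 libraries as measured were taken among 14450 genes with a mean of at least 1 CPM. For H19 they were the fast skeletal muscle troponin genes Tnni2 and Tnnt3 (both r = 0.915), which lie 131 and 59.5 kb from it on the same chromosome, Tnnt3 being among the skeletal muscle markers. For Igf2 they were Smco3 (0.982) and Npr3 (0.978), for Dlk1 Lonrf3 (0.991) and Cenpv (0.990), and for Rian Dbn1 (0.986) and Syt14 (0.985). Meg3 was nearest to Slc25a27 (0.896) and 9330159F19Rik (0.870), Peg3 to Filip1 (0.932) and Gsr (0.911), and Plagl1 to Dok6 (0.894) and Pygo1 (0.870). Mest was nearest to D430041D05Rik (0.932) and Zfp9 (0.884) and Ndn to Pak3 (0.955) and Dixdc1 (0.940). Grb10 had the least like partners, Glce (0.804) and Adgra3 (0.724).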

How the data were processed

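RNA of 12 celiac ganglia and 4 tumors was sequenced as stranded total RNA (the labels say polyA RNA, the kit and the methods total RNA; ganglia, too, are labelled neuroblastoma as cell type). Per the submitters' processing notes, reads went through STAR, SAMtools and RSEM on mm10. The authors deposited RSEM's expected counts per gene, not normalized, and its TPM, scaled within each library. The annotation release and the strand setting are not given in the sources used here. The Runx1t1 genotype Hom in the column headers was read as homozygous wild type, as the matching sample labels give wild type. No column was left unmapped (0).

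Expected counts were rounded, filtered with filterByExpr by group, normalized by TMM and fitted in R 4.3.3 with edgeR 4.0.16 (quasi-likelihood, all 5 groups in 1 fit, 7 comparisons, Benjamini-Hochberg over 16665 genes, threshold 0.05); all transgene-free or all MYCN ganglia are the mean of their 2 group means. The SE is the fold change over the root of F. The procedure was tested on simulated data. DESeq2 1.42.0, other scaling and filters, a block, a depth term and each library left out were alternatives. Precision is limited by the number of libraries and by depth (10692299 to 38618757 counts). No 2 libraries were identical (highest r 0.974). Of 25 same-numbered pairs of libraries, 6 deviated together (r over 0.1), among them all 4 of transgene-free WT ganglia and tumors. The comparison these enter also uses transgene-free het ganglia, whose 3 pairs with tumors were below 0, and no label says what a number marks, so the main fit has no block. For the members, the fit with the block is given beside calls it changes. TPM was used for levels and ratios, and log2(CPM + 1) for correlations.

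The members and gene lists were chosen with earlier results of these data known. Named were all members, at most 5 higher and 5 lower genes of the other imprinted and IGF lists by size of change among called genes with a mean of at least 1 CPM, the 2 genes most like each member, and Runx1t1. Sequences are from RefSeq: 9 of 10 members had a promoter window.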

Additional observations from a re-analysis of the deposited data

Results flagged for a closer look

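Dixon's test for 1 value standing apart was run on 26 groups of 4 libraries (each member and ratio in transgene-free WT ganglia and in tumors), and 5 values passed, where chance alone gives about 5%. H19 was at 362 TPM in replicate 3 of the transgene-free WT ganglia, the next being 114. Meg3 was at 187 TPM in replicate 2 of the same group, the next being 384, and that library also stood apart by lymphocyte markers. The log2 ratio of Rian to Meg3 was -1.21 in replicate 3 of that group, the next being -0.99. Mest was at 157 TPM in tumor 4, the next being 90.7. Ndn was at 422 TPM in tumor 1, the next being 657.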

How the results depend on the processing

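Of 1498 values recomputed under alternatives, 1384 kept their direction and side of the threshold (or stayed within the replicate spread), 35 lost and 19 gained the threshold, 36 changed sign and 24 moved. Libraries chosen after seeing the data for leaving out were those under 20000000 counts and the pair that stood apart by lymphocyte and liver markers. In tumors against transgene-free ganglia 5 to 7 members passed with a library left out. Against MYCN WT ganglia 3 passed, 1 with only the groups compared, and 1 to 5 with a library left out. For all MYCN against transgene-free ganglia 0 passed, 1 by DESeq2, and 0 to 2 with a library left out. For MYCN WT against transgene-free WT 1 passed, 2 by DESeq2, 0 with only the groups compared, only libraries over 20000000 counts or without both libraries that stood apart, and 0 to 2 with a library left out; with the replicate block it was 0. The cause of these shifts was not tested. Leaving out a MYCN het library leaves 1, assumed to vary like the other groups. With only libraries over 20000000 counts, no comparison with MYCN het ganglia could be fitted.

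No label says what a shared replicate number marks. Of 25 same-numbered pairs 6 correlated over 0.1 (range -0.52 to 0.34), including all 4 of transgene-free WT ganglia with tumors (0.22, 0.34, 0.16 and 0.13) but none of the 3 of transgene-free het ganglia with tumors. With the replicate block 6 members passed in tumors against transgene-free ganglia, as without it. Under the block Dlk1 no longer passed against MYCN WT ganglia (2.39, adjusted p = 0.0592) or for the MYCN effect (3.28, adjusted p = 0.0923), Rian passed against MYCN WT ganglia (0.81, adjusted p = 0.0443), and signs changed for Grb10 in tumors against MYCN WT ganglia (-0.571), Igf2 for the MYCN effect (-0.069) and Ndn in het MYCN ganglia (0.149).

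Other sign changes were all in values that failed the test. In tumors against MYCN WT ganglia Peg3 was -0.011 by upper-quartile scaling, -0.013 with no filter and with at least 10 counts in every library, -0.054 with a depth term, -0.005 with only the groups compared and -0.051 with only deep libraries, and Plagl1 was 0.005 with only deep libraries and 0.043 without both libraries that stood apart. For the MYCN effect Igf2 was -0.276 with a depth term and -0.078 without both libraries, and H19 -0.090 with a depth term. For Runx1t1 het in MYCN ganglia Ndn was 0.002 by upper-quartile scaling and 0.014 by DESeq2. With 1 library left out, Meg3 ran from -0.559 to 0.053 in tumors against transgene-free ganglia; against MYCN WT ganglia Peg3 ran from -0.153 to 0.087, Plagl1 from -0.362 to 0.161, Grb10 from -0.624 to 1.130 and Mest from -0.214 to 0.310; for the MYCN effect H19 ran from -0.183 to 1.249 and Igf2 from -0.683 to 0.722; and for het in MYCN ganglia Grb10 ran from -0.855 to 0.053, Mest from -0.453 to 0.009 and Ndn from -0.110 to 0.064.

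Counts of called genes over all genes ran from 3549 to 7101 (main 5755) for tumors against MYCN WT ganglia, 0 to 720 (7) for all MYCN ganglia, 0 to 1811 (156) for the MYCN effect, 0 to 320 (2) for het in MYCN ganglia, 0 to 5 (0) for het without MYCN and 0 to 31 (0) for the interaction.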
